A study of Mus musculus with 10 samples.

Results

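Sall1 and 7 genes around it on mouse chromosome 8 (Cyld, Nod2, Snx20, Nkd1, Brd7, Adcy7 and Tox3) were examined together with every chromatin interaction whose anchors both lay between 88.3 and 91.2 Mb of mm10 (GRCm38). This stretch held 133 of the 26689 interactions listed for the whole genome, 48 of 27845 H3K4me3 peaks in replicate 1 and 44 of 26574 in replicate 2. The 8 genes belong to 21864 protein-coding genes of the annotation, and 4 more coding genes (Gm19935, Chd9, Rbl2 and Aktip) have a transcription start site (TSS) in the stretch. The cells were microglia from the brain of wild-type C57/Bl6 mice, sorted as CD45+ CD11b+ CX3CR1+. Of 10 samples in the series, 6 were used here: 2 H3K4me3 ChIP–seq libraries, their 2 inputs and 2 PLAC-seq libraries. In PLAC-seq, DNA that lies close together in the nucleus is ligated, and an antibody against the promoter mark H3K4me3 then enriches ligated pairs with a marked end. The Hi-C samples, 2 of them from mice lacking a Sall1 enhancer, were not analysed here, so all values describe the wild type. Whether replicates came from separate animals is not given in the labels, and their spread may be technical.

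SALL1 is a zinc-finger transcription factor that in the brain is made by microglia, among other cell types, and helps to keep microglial identity. Enhancers are stretches of DNA that raise transcription of a gene from a distance, often by coming close to its promoter in the folded chromosome, and they can lie next to genes that they do not control. The neighbors of Sall1 have other roles. Nod2 encodes an intracellular sensor of bacterial cell wall fragments, Cyld a deubiquitinase that restrains NF-κB signaling, and Snx20 a sorting nexin. Nkd1 encodes an inhibitor of Wnt signaling, Brd7 a bromodomain subunit of a chromatin remodeling complex, Adcy7 an adenylate cyclase, and Tox3 a high-mobility-group transcription factor known mainly from neurons. The question was how the called contacts divide between Sall1 and these genes.

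The label of the cells was checked first. The microglia markers Cx3cr1, P2ry12, Tmem119, Csf1r and Aif1 were all marked, that is, each replicate had an H3K4me3 peak within 1 kb of a TSS, with values from 135 to 310 tags per 10 M tags of the library. Of 3 markers each of neurons, astrocytes, oligodendrocytes and endothelial cells, 1 per type was marked in both: Snap25 (8.21 to 10.1), Aldh1l1 (17.1 to 23.9), Mbp (163 to 210) and Pecam1 (11.2 to 15.6). None of the 3 monocyte and neutrophil markers was. Of all autosomal coding genes, 59.4% were marked. Library depth, recovered as tag count over value, was 12.8 and 13.4 M tags.

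The promoters of Sall1, Cyld, Nod2 and Tox3 are shown because they span the range of H3K4me3 found in the stretch. Each is the sequence upstream of the first annotated transcribed base, 5′ to 3′ on the strand of the gene, from RefSeq on GRCm38, with CpG dinucleotides in capitals.
Sall1, chr8:89044163-89044412, minus strand: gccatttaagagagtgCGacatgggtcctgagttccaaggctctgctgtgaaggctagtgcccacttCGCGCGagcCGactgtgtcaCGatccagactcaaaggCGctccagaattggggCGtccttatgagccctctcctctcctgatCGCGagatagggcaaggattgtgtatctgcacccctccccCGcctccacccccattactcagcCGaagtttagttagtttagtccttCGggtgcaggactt
Cyld, chr8:88696778-88697027, plus strand: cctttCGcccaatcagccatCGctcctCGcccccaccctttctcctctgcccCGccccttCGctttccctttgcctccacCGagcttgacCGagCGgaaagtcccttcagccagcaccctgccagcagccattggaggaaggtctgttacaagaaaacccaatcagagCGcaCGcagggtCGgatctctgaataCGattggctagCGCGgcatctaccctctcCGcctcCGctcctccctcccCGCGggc
Nod2, chr8:88647097-88647314, plus strand: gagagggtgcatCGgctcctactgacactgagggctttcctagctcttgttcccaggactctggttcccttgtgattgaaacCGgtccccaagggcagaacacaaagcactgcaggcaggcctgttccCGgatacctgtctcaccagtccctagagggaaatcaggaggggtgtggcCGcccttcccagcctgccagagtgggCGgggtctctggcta
Tox3, chr8:90348344-90348502, minus strand: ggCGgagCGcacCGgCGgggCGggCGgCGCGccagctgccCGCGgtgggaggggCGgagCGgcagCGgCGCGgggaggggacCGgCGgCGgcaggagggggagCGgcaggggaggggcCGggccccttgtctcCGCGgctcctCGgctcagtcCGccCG
These runs held 13 CpGs in 250 bases at Sall1, 18 in 250 at Cyld, 5 in 218 at Nod2 and 25 in 159 at Tox3. In the full RefSeq windows of 300 bases around each start, Sall1 had 18 CpGs, which exceeded the count in 70.3% of 32851 promoter windows, and 2 further Sall1 starts within the gene had 27 and 39. Tox3 had 52, above 99.4% of windows, whereas Nod2 had 9 (54.2%) and Cyld 22 (76.9%). The remaining genes with a RefSeq window had 31 CpGs (Brd7), 6 (Nkd1) and 4 to 6 at 3 starts of Adcy7; Snx20 had no entry.

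H3K4me3 separated the 8 genes into strongly marked, weakly marked and unmarked ones. Sall1 had 244.6 in replicate 1 and 246.9 in replicate 2 (mean 246 ± 1.63, SD, n = 2), given as the tallest peak within 1 kb of a TSS in tags per 10 M. The replicates of Sall1 nearly coincided, and 60.3% of 12304 marked autosomal genes had a lower mean. Cyld was the most strongly marked by this measure, with 308.5 and 424.4, but its replicates lay far apart (SD 82.0). Brd7 had 256.3 and 318.5 and Snx20 189.3 and 182.7. Both replicates of Cyld lay above those of Sall1, and those of Brd7 did so as well, whereas Snx20 lay below in both. The order depended on the measure. Summed over the peaks within 1 kb, the mean was 502 at Sall1, 418 at Cyld and 374 at Brd7. With the tallest peak within 2.5 kb, the mean was 265 at Sall1, 366 at Cyld and 287 at Brd7. Replicate 1 of Brd7 (256.3) then lay below that of Sall1 (258.7).

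Weaker marks were found at Nkd1 (77.1 and 68.6), Adcy7 (50.6 and 52.2) and Nod2 (24.2 and 10.4). These values are low among marked genes: 17.3%, 14.1% and 5.39% of these, respectively, had a lower mean. Nod2 differed most between replicates, by −1.22 on the log2 scale, where the SD of this ratio over marked genes was 0.31. Tox3, whose promoter is the richest in CpG of those shown, had no peak within 1 kb of its TSS in either replicate. Neither did Gm19935. Aktip, Rbl2 and Chd9, at the far end of the stretch, had means of 297 ± 27.6, 344 ± 2.90 and 150 ± 26.7 (SD, n = 2).

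**Figure D1:**
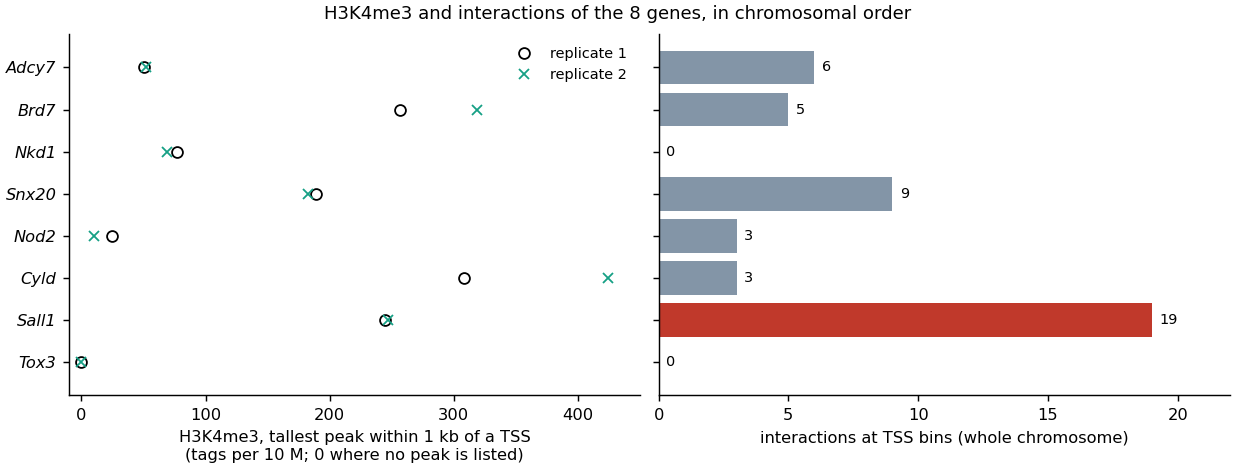
The left panel gives the H3K4me3 value of each gene (x axis, tags per 10 M, tallest peak within 1 kb of a TSS) in replicate 1 (circles) and replicate 2 (crosses), with 0 where no peak is listed; the right panel gives the number of interactions at its TSS bins. Cyld, Brd7 and Sall1 lie above 240 in both replicates, but Sall1 has 19 interactions against 3 for Cyld and 5 for Brd7.

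At Sall1 the mark also ran deep into the gene. The peaks are fixed windows of 185 bp in replicate 1 and 189 bp in replicate 2. Joined where the next window began within 2 kb, they formed a domain of 11.5 kb with 15 windows in replicate 1 (89034963 to 89046418) and of 10.9 kb with 12 windows in replicate 2 (89036247 to 89047107). No other of 19681 autosomal domains in replicate 1 and 19119 in replicate 2 was longer; the next longest measured 11.0 and 9.79 kb, and the median domain in both replicates was a single window. The tallest windows stood inside the gene, at 89041934 (258.7) in replicate 1 and 89041946 (270.8) in replicate 2, 2 kb downstream of the TSS used here. A further RefSeq start of Sall1, with its promoter window at 89042813 to 89043112, lay nearer to them. From the tallest windows values fell to 18.7 to 45.2 in replicate 1 and 36.5 to 44 in replicate 2 beyond 4 kb into the gene. By the same joining, the domains of the other 6 marked genes among the 8 measured 0.185 to 1.08 kb, that of Cyld being the longest in each replicate.

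The length depended on the join. With a gap of 1 kb the run at the Sall1 TSS broke to 0.748 and 1.32 kb, because no window was called between about 1 and 2 kb into the gene. At that gap, 3288 of 21076 domains in replicate 1 and 695 of 20397 in replicate 2 were longer. With 3 kb, 2 other domains were longer in each replicate, and with 5 kb, 20 and 29 were. In replicate 1 no domain held more windows than the 15 at Sall1 at gaps of 2, 3 or 5 kb; in replicate 2 none held more than 12 at 2 or 3 kb, and 2 did at 5 kb.

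**Figure D2:**
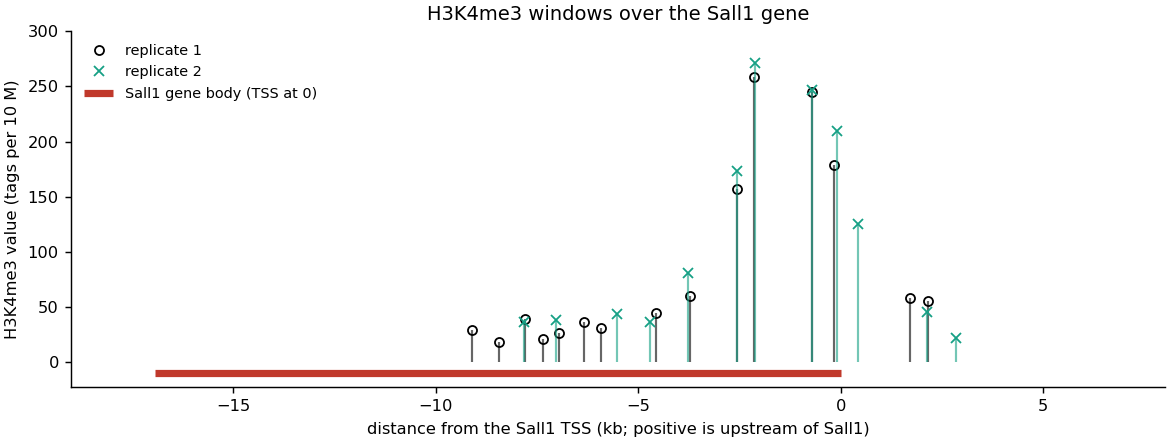
Each stem is 1 H3K4me3 window, placed by its distance from the Sall1 TSS (x axis, kb; negative is inside the gene) with its height in tags per 10 M, in replicate 1 (circles) and replicate 2 (crosses); the red bar is the gene body. Windows reach 258.7 and 270.8 about 2 kb inside the gene and continue to 9 kb in replicate 1 and 8 kb in replicate 2.

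The 133 interactions fell into 4 blocks that no interaction joined. The first, 345 kb long (88360001 to 88705000), held Brd7, Nkd1, Snx20, Nod2 and Cyld and had 16 interactions. The second, 785 kb long (89005001 to 89790000), held Sall1 as its only coding gene and had 64 interactions, 48.1% of the total (exact 95% binomial interval 39.4 to 56.9). The third, of 240 kb around Chd9, had 51, and the last, of 35 kb at Rbl2, had 2. Neighboring interactions are not independent, so the binomial interval is narrower than the true one. Tox3 lay in a stretch of 1005 kb between the Sall1 and Chd9 blocks (89790001 to 90795000) that had no interaction and no H3K4me3 peak in either replicate. Pairs were listed only where the authors had marked a bin for H3K4me3. A stretch without marked bins therefore cannot hold a listed pair within it.

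**Figure D3:**
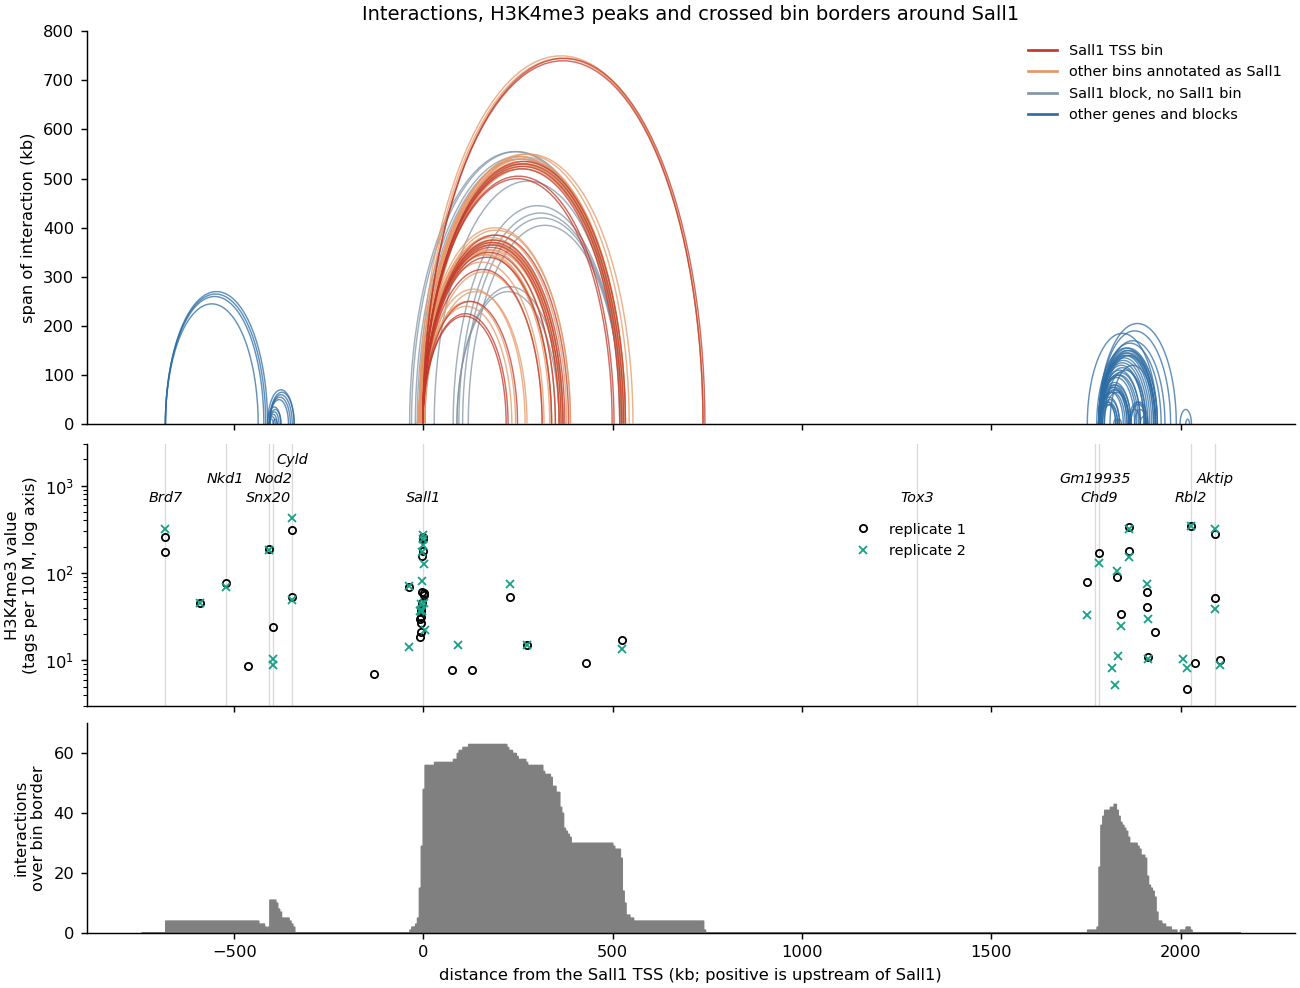
The x axis is the distance from the Sall1 TSS in kb. The top panel draws each of the 133 interactions as an arc whose height is its span in kb, the middle panel gives H3K4me3 peaks in tags per 10 M (log axis) for replicate 1 (circles) and replicate 2 (crosses) with gene TSSs as lines, and the bottom panel counts interactions over each bin border; all red arcs run upstream from Sall1, and the stretch around Tox3 is empty.

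Because Sall1 lies on the minus strand, upstream of it means higher coordinates, away from Cyld and towards Tox3. The bin of 5 kb that holds the Sall1 TSS (89040001 to 89045000) had 19 interactions, 14.3% of the 133 (exact 95% binomial interval 8.83 to 21.4). All 19 ran upstream, over 220 to 745 kb with a median of 375 kb. None reached towards Cyld. Among 295 marked autosomal genes with at least 10 interactions, 69.2% also had all of them on 1 side, so a 1-sided set of contacts was common. None of the 19 passed over a coding TSS, but none could have. The next coding TSS upstream, that of Tox3, lay 1304 kb away, beyond the longest listed span of 1000 kb. Across the genome, 34.4% of interactions with a coding TSS in an anchor passed over none between their anchors. That share is no yardstick for these 19.

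The contacts rested on few read pairs, but on many more than the caller expected at these distances. Summed over the 19, 295 read pairs stood against 57.2 expected (ratio 5.15; exact 95% Poisson interval 4.58 to 5.78). For comparison, the median ratio of the 4648 marked genes with interactions was 3.55, and 85.4% of them lay below Sall1. Both libraries were combined in 1 list, and so the intervals cover counting error only. As the caller lists only pairs with at least 2.00 times the expected number, ratios describe what was listed and carry no test. Pairs with a low expected number also needed a higher ratio. In this stretch a pair over 270 kb with 2.68 expected had a ratio of 3.73 at a false discovery rate of 0.00663. A pair over 10 kb with 17.9 expected had 2.01 at 0.00551. Ratios of genes with unlike spans are therefore not like for like. Of marked autosomal genes, 37.8% had any interaction, and 55 of 12304 had 19 or more. The median span of Sall1 was exceeded or equaled by 335 of the 4648 genes with interactions, whose own median was 110 kb. Of the 295 genes with at least 10 interactions, 37 reached a median span as long as that of Sall1, and 30 of these also had contacts on 1 side alone.

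**Figure D4:**
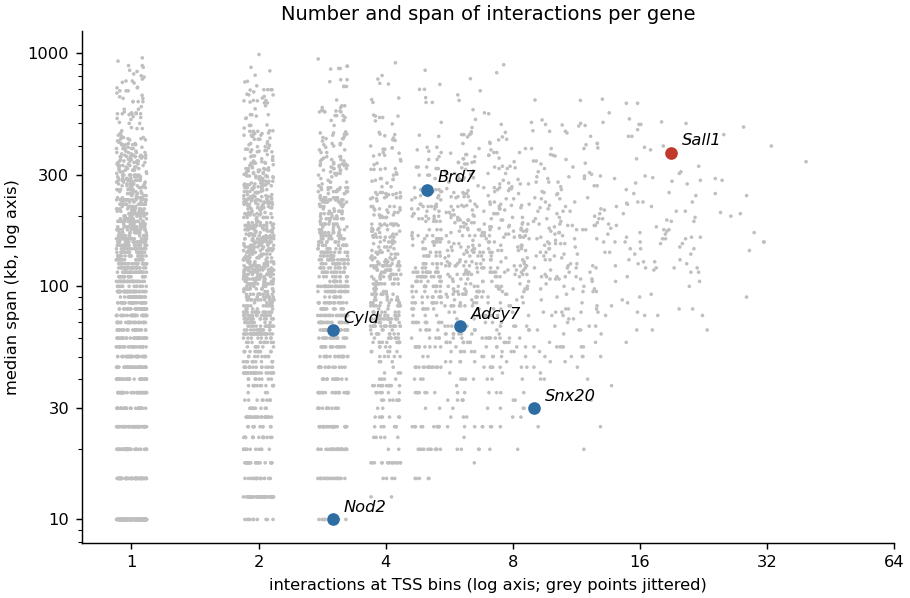
Each grey point is 1 of 4648 autosomal coding genes with H3K4me3 in both replicates and at least 1 interaction, by number of interactions (x, log axis, jittered) and median span in kb (y, log axis). Sall1 (red) sits at 19 interactions and 375 kb, and its neighbors (blue) lie at 3 to 9 interactions and 10 to 260 kb.

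Upstream partner bins of Sall1 formed 3 groups separated by more than 50 kb. They are given for the TSS bin and for the other bins that the authors annotated as Sall1: 2 bins in the gene body (from 89030001 and from 89035001) and 1 bin just upstream (from 89045001). These 4 bins took 53 of the 64 interactions of the block, with 10, 16, 19 and 8 each. Of the 53, 52 ran upstream, and the remaining interaction joined the bin from 89035001 to the bin from 89025001, at the far end of the gene, over 10 kb (65 read pairs against 31.2, ratio 2.09). Their summed ratios were 5.47 (4.49 to 6.62), 4.25 (3.76 to 4.78), 5.15 (4.58 to 5.78) and 5.57 (4.46 to 6.87), with exact 95% Poisson intervals that overlapped between the TSS bin and each of the others. Without the short interaction the ratio of the bin from 89035001 was 6.30 (5.47 to 7.22), whose interval also overlapped that of the TSS bin. Upstream partners were thus listed for the gene body as well as for the TSS, and 29 interactions of the block passed over the TSS bin from 1 side to the other.

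The nearest group lay 216 to 391 kb upstream of the TSS (89260001 to 89435000). It spanned 19 partner bins and took 31 of the 53 interactions, 11 of them from the TSS bin. The TSS bin had 168 read pairs against 38.0 expected, a ratio of 4.42 (3.77 to 5.14). Read pairs per contact ran from 10 to 21. The highest ratio was with the bin from 89400001, with 21 read pairs against 2.72 (ratio 7.71). That bin and the one from 89410001 were each reached from all 4 Sall1 bins and from 1 further bin. Other contacts of the TSS bin in this group were weaker, down to 17 read pairs against 5.25 (ratio 3.24) for the nearest bin, from 89260001.

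The second group, 496 to 556 kb upstream (89540001 to 89600000), had fewer contacts but higher ratios. It took 17 interactions in 8 bins, 6 of them from the TSS bin, with 104 read pairs against 15.1 (ratio 6.89, 5.63 to 8.35). The Poisson interval of this ratio did not overlap that of the nearest group, which describes the listed pairs and is no test. The bins from 89565001 and 89575001 gave the TSS bin its highest ratios, with 28 read pairs against 2.67 (10.5) and 26 against 2.53 (10.3). The bin between them had 13 against 1.95 with the TSS bin (6.66) but reached 18 against 1.57 (11.5) with the gene body bin from 89035001, the highest ratio of any Sall1 bin.

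The third group was a pair of bins 736 to 746 kb upstream (89780001 to 89790000), where the block ended. The TSS bin touched both, with 14 read pairs against 2.10 (6.67) and 9 against 2.00 (4.50). Both gene body bins touched the nearer one, and the bin upstream of the TSS touched neither. No H3K4me3 peak lay in this pair of bins in either replicate.

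**Figure D5:**
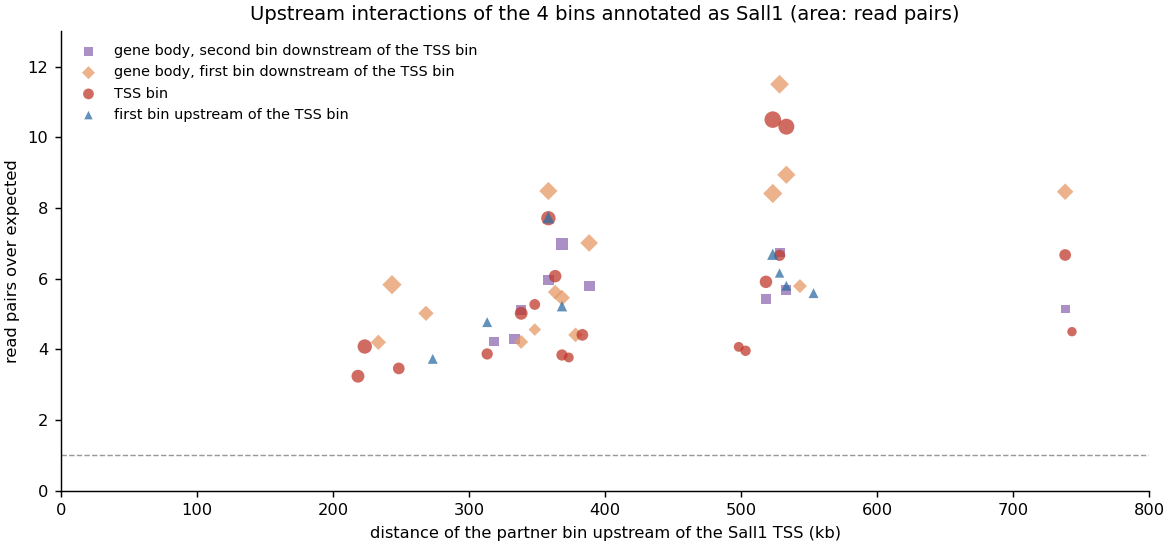
Each point is 1 interaction between a bin annotated as Sall1 (color and shape) and an upstream bin, by the partner's distance from the TSS in kb (x) and read pairs over expected (y), with area in proportion to read pairs; the dashed line marks a ratio of 1. Points form groups at 216 to 391, 496 to 556 and 736 to 746 kb, and the highest ratios, 10.3 to 11.5, lie in the second group.

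Upstream of the gene H3K4me3 was sparse and low. A window 2 kb upstream of the TSS, part of the domain at the gene, overlapped in both replicates (56.1 and 45.5), and another beside it was called in replicate 1 alone (58.4). The 3 windows farther upstream that overlapped in both replicates are shown because they lie within the stretch that Sall1 contacts, and another because it lies on the other side of the gene. Each is the plus strand of GRCm38, 5′ to 3′, with CpG dinucleotides in capitals. None overlapped an annotated exon.
37 kb downstream of the TSS, chr8:89006589-89006773: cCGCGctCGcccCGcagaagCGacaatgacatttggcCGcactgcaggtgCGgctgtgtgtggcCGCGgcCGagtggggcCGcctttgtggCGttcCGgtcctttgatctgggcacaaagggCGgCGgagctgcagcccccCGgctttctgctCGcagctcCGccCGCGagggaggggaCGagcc
229 kb upstream, chr8:89272641-89272825: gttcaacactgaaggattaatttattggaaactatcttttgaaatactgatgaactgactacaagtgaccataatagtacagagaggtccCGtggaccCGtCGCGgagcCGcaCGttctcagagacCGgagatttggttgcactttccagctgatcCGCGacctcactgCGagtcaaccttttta
274 kb upstream, chr8:89317612-89317796: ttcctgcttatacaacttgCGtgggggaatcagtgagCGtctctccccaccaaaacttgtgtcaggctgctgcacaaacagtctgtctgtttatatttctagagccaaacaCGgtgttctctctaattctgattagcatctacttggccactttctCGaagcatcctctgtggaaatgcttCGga
526 kb upstream, chr8:89569611-89569795: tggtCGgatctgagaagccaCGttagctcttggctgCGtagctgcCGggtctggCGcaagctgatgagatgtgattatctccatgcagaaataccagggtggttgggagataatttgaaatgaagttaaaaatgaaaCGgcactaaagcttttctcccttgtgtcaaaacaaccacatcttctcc
The window downstream of the gene had values of 68.6 and 71.6 and 21 CpGs, more than 81.1% of 27037 autosomal windows of replicate 1. The 3 windows farther upstream had 10, 5 and 6 CpGs, where the median window had 11. Their values were 53 and 75.3 at 229 kb, 14.8 and 14.9 at 274 kb, and 17.1 and 13.4 at 526 kb, all below the 244.6 and 246.9 at the Sall1 TSS. The lower ones rested on 18 to 22 tags each, against 0.6 to 1.4 input tags scaled to the same depth.

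The tallest of these 3 windows, at 229 kb, stood in a bin that had no interaction, although the bins on both sides contacted Sall1. The bin of the window at 274 kb had 1 interaction, with the bin upstream of the Sall1 TSS. By contrast, the bin of the weak window at 526 kb (from 89565001) had 11 interactions, the most of any bin outside Sall1 in the block, with 138 read pairs against 19.4. Sall1 bins made 3 of these. The other 8 joined it to bins from 32 kb downstream to 118 kb upstream of the TSS, each with 8 to 13 read pairs. The authors had marked none of these bins, although the one from 89120001 held a peak of replicate 1 alone (7.79). The bin of the marked window downstream of the gene contacted the next bin, from 89560001, with 10 read pairs against 1.64 (ratio 6.11). A pair of bins could be listed only if the authors had marked at least 1 of its bins for H3K4me3. In the Sall1 block 8 of 43 anchor bins were marked, the 4 Sall1 bins and the one from 89565001 included. Unmarked bins, such as those from 89570001 and 89575001, could be listed only with marked ones, so their counts cannot be set against that of the bin from 89565001.

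None of the 11 interactions of the block without a bin annotated as Sall1 touched a coding promoter. None could have, as the block held no coding TSS but that of Sall1. Among them, the pair of bins from 89025001 and 89565001 had its lower end in the Sall1 gene. The 11 interactions had 105 read pairs against 17.7 expected (ratio 5.94, 4.86 to 7.19) and spans of 270 to 555 kb.

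Contacts between Sall1 and its neighbors were not called. No interaction joined the Sall1 TSS bin to a TSS bin of another coding gene, and no partner bin of Sall1 was a partner of another coding gene. Both counts stayed at 0 when all bins of gene bodies were used. Across the genome, 9.44% of interactions with a coding TSS in an anchor had one in both anchors. The TSSs of Cyld (347 kb), Nod2 (397 kb), Snx20 (408 kb), Nkd1 (523 kb), Brd7 (682 kb) and Adcy7 (772 kb) all lay within the longest listed span of 1000 kb. Tox3, at 1304 kb, did not, so a contact between the Sall1 and Tox3 promoters could not have been listed. Absence from the list means that a pair was not called, and says nothing of how close its bins lie.

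The interval from within the Cyld gene towards Sall1 was bare as well. No interaction passed over the 300 kb between 88705001 and 89005000, which held 1 peak of replicate 1 (7.01) and none of replicate 2. It took in the rest of the Cyld gene, up to 88751945, with a later Cyld TSS. Over the whole stretch, 304 of 581 borders between bins (52.3%) were crossed by no interaction with both anchors in the stretch. With all interactions of the chromosome counted, 291 borders were crossed by none. Over all autosomes, with every interaction counted, the share was higher, at 79.3%. At the other extreme, borders 121 to 216 kb upstream of Sall1 were each crossed by up to 63 interactions.

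Whereas the contacts of the Sall1 TSS bin ended in intergenic sequence, the genes on the Cyld side contacted each other at short range. Snx20 had 9 interactions over 10 to 65 kb (243 read pairs against 93.4, ratio 2.60, 2.28 to 2.95), and 4 of them ended at promoters. It was joined to the Nod2 TSS bins with 43 read pairs against 19.3 (2.23) and 32 against 14.8 (2.16), and to the Cyld bins with 33 against 10.1 (3.28) and 19 against 6.50 (2.92). All 9 ran upstream of Snx20, that is towards Nod2, Cyld and Sall1, and ended at or before the Cyld promoter.

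Nod2 had 3 interactions of 10 to 15 kb, 2 of them with Snx20 and 1 within its own gene (34 read pairs against 12.4, 2.74). Cyld had 3 interactions over 60 to 70 kb (72 against 21.5, ratio 3.35, 2.62 to 4.22), 2 with the Snx20 TSS bin and 1 with the next bin of the Snx20 gene (20 against 4.91, 4.07). All 3 ran away from Sall1. Although its promoter had the tallest peak of the 8 genes, Cyld had as few interactions as Nod2.

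Brd7 reached farthest on this side. It had 5 interactions over 90 to 270 kb (78 against 18.4, ratio 4.23, 3.34 to 5.28). Of these, 4 ended 245 to 270 kb away, in the Snx20 gene or between it and Nkd1. The strongest had 16 read pairs against 2.39 (6.69). These 4 passed over Nkd1, which was marked (77.1 and 68.6) but had no interaction of its own, at its TSS bins or in its gene body. The fifth joined Brd7 to the Adcy7 TSS bin, 90 kb away, with 27 read pairs against 9.12 (2.96, 1.95 to 4.31).

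That interaction crosses the lower limit of the stretch, as did all 6 of Adcy7, which began at its first TSS bin (88270001 to 88275000) and spanned 35 to 90 kb (142 against 50.7, ratio 2.80, 2.36 to 3.30). Apart from the one with Brd7, 3 ended inside Adcy7 and 2 inside the Brd7 gene, 80 and 85 kb away. The bin held a peak of 42.8 and 35.8, while the taller peak of Adcy7 (50.6 and 52.2) stood at a later TSS, at 88294235. The ratios of Snx20, Adcy7, Cyld and Nod2 (2.35, 1.93 to 2.83) had intervals below that of Sall1, whereas that of Brd7 overlapped it. The pairs of Snx20, Adcy7, Cyld and Nod2 spanned 10 to 90 kb and those of Sall1 220 to 745 kb. Their ratios are therefore not like for like.

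Chd9, beyond Tox3, had about as many interactions as Sall1, 21 over 45 to 205 kb (346 against 84.7, ratio 4.08, 3.66 to 4.54), all inside its own gene. The interval of this ratio also lay below that of Sall1, again at shorter spans. Chd9 encodes a chromodomain helicase. Rbl2 had 1, and Gm19935 and Aktip had none, although Aktip was strongly marked.

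The other genes of the Sall family had few interactions. Sall3 had almost the same H3K4me3 (254 and 246.2) and an even longer flank without a coding TSS (1420 kb against 1304 kb). It had 1 interaction, of 60 kb (31 read pairs against 12.2). Sall2 (173.7 and 171.6) had 2, over 10 and 40 kb, and Sall4, which had a peak of 6.23 in replicate 1 alone, had none. A flank as long as that of Sall1 was found at 393 further autosomal coding genes.

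Lsg1, Uhmk1, Plcl1 and Jun were among the 5 genes nearest to Sall1 over 3 measures (number of interactions, median span and mean H3K4me3, each scaled to its SD over 4648 genes). Jun, a subunit of AP-1, had 19 interactions with a median span of 500 kb. Lsg1 and Uhmk1 had 17 each, with 470 and 395 kb, and Plcl1 had 22 with 328 kb. All 4 had their contacts on 1 side, and their H3K4me3 values ran from 240 to 317 in replicate 1 and from 258 to 310 in replicate 2. Like Sall1, Plcl1 had a flank of over 1 Mb without a coding TSS (1232 kb), whereas the longer flank of Lsg1 measured 37.0 kb.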

How the data were processed

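H3K4me3 ChIP–seq, input and H3K4me3 PLAC-seq libraries of sorted wild-type microglia were used, grouped by assay and genotype as labelled. Members and lists were chosen with earlier results of these data known. For H3K4me3, the authors deposited 1 HOMER peak list per library (Bowtie2, HOMER and mm10 per the submitters' processing notes; replicates not pooled). The deposited signal of a window is its tags per 10 M tags, normalized by the authors, and its deposited tag count is a whole number. Input tags were scaled by the authors to the ChIP depth. The deposited fold over input (a ratio), p-value, focus ratio (a fraction) and score were not used in any result. The authors merged the PLAC-seq libraries and deposited a read pair count, an expected count and a false discovery rate (an adjusted p-value, highest 0.0100) for interactions called with MAPS between 5 kb bins; the deposited −log10 p-value of clusters was not used. PLAC-seq depth is unknown.

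TSSs of protein-coding transcripts were taken from GENCODE M21 (basic set, GRCm38). A gene was marked when each replicate had a peak within 1 kb of any of its TSSs, and an interaction belonged to a gene when an anchor bin held its TSS. Blocks are runs of bins spanned by at least 1 interaction. Ratios are summed read pairs over summed expected, with exact 95% Poisson intervals, and shares have exact (Clopper-Pearson) 95% binomial intervals; both cover counting error only. No test between groups was possible, as only 1 group was measured. Named genes were the 8 members, other coding genes of the stretch, the Sall family and the 5 genes nearest to Sall1 by Euclidean distance; 1 of these 5 and 1 cell type marker are not reported here. Counts, borders and intervals were tested on simulated data. Python 3.11.15, scipy 1.17.1 and pandas 2.3.3 were used. Alternatives changed the false discovery rate, read pair minimum, bins, distance to the TSS and replicates. The Hi-C samples were not analysed here.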

Additional observations from a re-analysis of the deposited data

How the results depend on the processing

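The number of interactions of the Sall1 TSS bin, 19, depended on what counted as one. It was 9 under a false discovery rate limit of 0.0001, 4 with at least 20 read pairs, 2 with 1 interaction per cluster and 46 over all bins of the gene body. The ratio of read pairs to expected rose from 5.15 to 6.65, 7.34 and 9.09 under the first 3, which keep the stronger pairs by construction. The share of Sall1 in the stretch kept to 11.1 to 17.3% under these 3, within the interval of the main value, and was 34.6% for the gene body. The summed interactions of the 8 genes, 38 in the stretch, were 74 over gene bodies and 16 at the stricter false discovery rate; Adcy7 went from 0 to 6 when interactions that cross the limit of the stretch were counted. The median H3K4me3 value of the 7 marked genes, 186, was 183 to 189 with 1 replicate left out. Gaps of 1 kb, chosen after seeing the data, cut the Sall1 domain to 0.748 and 1.32 kb. In all, 18 of 30 summary values and 41 of 52 values of single genes changed by less than the limit set for their kind. This limit was 1.5 times for counts and lengths, and the 95% interval of the main value for shares and ratios. For H3K4me3 it was 1 SD of the replicates. Some of these values could not have moved. With 1 of 2 replicates left out, the mean of a gene cannot shift by more than 1 SD of the replicates. Counts of 0 cannot fall under a stricter limit. The tally is therefore no measure of robustness. No paired analysis was possible because only 1 group was measured and PLAC-seq libraries were combined. Without the PLAC-seq depth it cannot be said which pairs could have been listed.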
